A study of Mus musculus with 5 samples.

Results

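The NMDA receptor subunits are the 7 genes Grin1, Grin2a, Grin2b, Grin2c, Grin2d, Grin3a and Grin3b, found by matching the Ensembl identifiers of the deposited count table to these symbols in GENCODE M21. All 7 were present among the 47729 genes of the table. Brain RNA was sequenced from 5 male C57BL/6 mice, an inbred laboratory strain, at 30 months of age. The animals form a single group and carry the label numbers 7, 8, 9, 10 and 11. No other age, tissue or treatment was analysed here, so the levels are described and compared between subunits and between mice.

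NMDA receptors are ion channels opened by glutamate that admit calcium at excitatory synapses and are known for their part in synaptic plasticity. Each receptor needs GluN1, encoded by Grin1, which binds the co-agonist glycine or D-serine. GluN1 is joined by GluN2 subunits, encoded by Grin2a to Grin2d, which bind glutamate, or by GluN3 subunits, encoded by Grin3a and Grin3b, which bind glycine. Magnesium blocks the usual GluN1 and GluN2 channel at rest, and that block depends on asparagine residues in the pore loop of these subunits.

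The GluN3 genes differ from the others shown at such a residue, so the coding sequence around its codon is given for 6 subunits. It was read from GENCODE M21 transcripts (GRCm38). The codon was located by its fixed distance from a conserved motif of the following membrane segment, and it stands in capitals.
Grin1: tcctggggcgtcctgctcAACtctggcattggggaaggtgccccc
Grin2a: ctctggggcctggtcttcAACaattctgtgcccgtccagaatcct
Grin2c: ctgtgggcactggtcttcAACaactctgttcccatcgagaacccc
Grin2d: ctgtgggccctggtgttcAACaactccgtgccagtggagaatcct
Grin3a: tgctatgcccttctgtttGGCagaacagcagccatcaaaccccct
Grin3b: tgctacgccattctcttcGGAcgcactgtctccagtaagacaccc
Grin1, Grin2a, Grin2c and Grin2d carry an asparagine codon at this position, and Grin3a and Grin3b carry a glycine codon. The stretch lies at chr2:25297289-25297406 for Grin1, where it is split by an intron. Each of the others lies within 1 exon, at chr16:9653537-9653581 for Grin2a and chr11:115253839-115253883 for Grin2c. The remaining positions are chr7:45854369-45854413 for Grin2d, chr4:49770560-49770604 for Grin3a and chr10:79974528-79974572 for Grin3b. Grin3b lies on the plus strand and the other genes on the minus strand.

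The libraries held between 15392006 and 18723390 counts, the highest total being that of mouse 11. The 7 subunit genes together took 0.132% ± 0.0125 of the counts (SD, n = 5), with 0.113% in mouse 11 and 0.126% to 0.145% in the other mice. Markers of neurons, astrocytes and oligodendrocytes, as the brain label implies, were abundant: Snap25 of nerve terminals averaged 298 RPKM, Gfap of astrocytes 115 RPKM and Mbp of myelin 346 RPKM. RPKM is a count divided by gene length and by library size. It was recomputed here with each library's own total, because most deposited RPKM values rest on another library's total. Some markers of the cerebellum and brainstem were low and uneven: the granule cell genes Gabra6 and Cbln3 and the brainstem gene Dbh had no count in at least 1 mouse. Of the 3 Purkinje cell markers, Pcp2 averaged 0.55 RPKM, Car8 3.80 RPKM and Calb1 20.4 RPKM. Pcp2 lay between 0.088 and 1.88 RPKM and Car8 between 1.18 and 9.82 RPKM in single mice. In whole tissue, fewer cells of a type and less RNA per cell cannot be told apart.

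Grin1 and Grin2b were the most abundant subunits per length, and Grin3b was barely detected. The order of the mean levels was Grin2b and Grin1 together at the top, then Grin2a, Grin2c, Grin3a, Grin2d and Grin3b. Summed over the 7 genes, the level was 86.7 ± 2.85 RPKM (SD, n = 5), with 83.5 to 89.1 RPKM in single mice. The sum depends on the length and scaling used: with the longest coding transcript as length it was 121 to 143 RPKM, highest in mouse 11, and with each library's trends in GC content and exon length removed it was 80.0 to 92.6 RPKM, lowest in mouse 11.

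**Figure D1:**
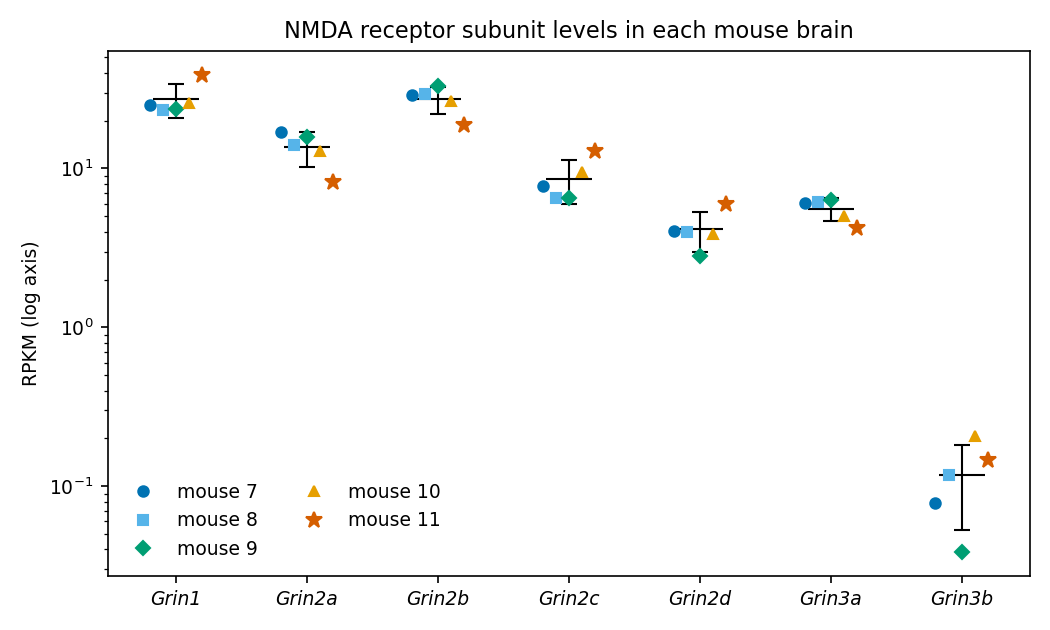
RPKM of the 7 NMDA receptor subunit genes in each of the 5 mice on a log axis, with the mean and SD as black bars. Mouse 11, drawn as a star, is the highest for Grin1, Grin2c and Grin2d and the lowest for Grin2a, Grin2b and Grin3a, and Grin3b lies between 0.0387 and 0.208 RPKM.

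Grin1, the obligatory subunit (chr2:25291181-25319187), had 24.96, 23.4, 23.6, 25.7 and 39.0 RPKM in mice 7, 8, 9, 10 and 11. Mouse 11 stood above the other mice, which lay within a coefficient of variation of 4.49%. The mean was 27.3 ± 6.59 RPKM over the 5 mice and 24.4 ± 1.09 RPKM without mouse 11. These values rest on 7077 counts in mouse 11 and 3490 to 3992 counts in the other mice.

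Grin2b, which encodes the GluN2 subunit that dominates early in forebrain development, had 29.2, 29.3, 32.8, 26.5 and 18.8 RPKM in mice 7 to 11. Its mean was 27.3 ± 5.27 RPKM, and it took 54527 of the counts over all mice, the most of any subunit. Here mouse 11 was the lowest, below the range of the other mice. Grin2a, whose product increases after birth and gives receptors with fast decay, had 17.1, 14.2, 15.8, 12.8 and 8.16 RPKM, with a mean of 13.6 ± 3.45 RPKM. Mouse 11 was again the lowest. Grin2b (chr6:135713233-136173511) and Grin2a (chr16:9567898-9995560) were both on the low side in mouse 11: Grin2b was 1.71, 2.07, 2.08, 2.07 and 2.30 times Grin2a in mice 7 to 11.

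Grin2c, known for its expression in cerebellar granule cells and in astrocytes, had 7.80, 6.54, 6.51, 9.44 and 12.8 RPKM in mice 7 to 11, with a mean of 8.62 ± 2.62 RPKM. Grin2d, found in the diencephalon, brainstem and many inhibitory neurons, had 4.02, 3.99, 2.80, 3.87 and 5.98 RPKM, with a mean of 4.13 ± 1.15 RPKM. Both were highest in mouse 11. Grin2d is also the least deeply counted of the GluN2 genes: its lowest count, 192 in mouse 9, has an exact 95% Poisson interval of 166 to 221, which covers counting error only. Grin2c lies at chr11:115249169-115267243 and Grin2d at chr7:45831883-45878378.

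Grin3a (chr4:49661611-49845744), whose product lowers calcium entry and is most abundant in juvenile brain, had 6.03, 6.19, 6.36, 5.06 and 4.21 RPKM in mice 7 to 11. Its mean was 5.57 ± 0.910 RPKM, the lowest value being that of mouse 11. Grin3b (chr10:79970715-79977190), known from motor neurons, had 4, 6, 2, 11 and 9 counts, or 0.118 ± 0.0646 RPKM. The exact 95% Poisson intervals of the lowest and the highest of these counts, 0.242 to 7.23 in mouse 9 and 5.49 to 19.7 in mouse 10, overlap. Of the exon bases of Grin3b, 32.1% are also covered by Tmem259 on the opposite strand, a gene with 6394 counts over all mice. Whether the counting used strand is not given in the sources used here, and without it reads from that overlap cannot be told apart. The same holds for 13.5% of the exon bases of Grin1, which the antisense gene Grin1os covers, although Grin1os had 441 counts against 21908 for Grin1. It holds too for 9.66% of the exon bases of Grin2d, covered by the antisense gene Gm45441, for which no count was used here.

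The subunits were set against each other within each library, where the library total cancels. For each of the 21 pairs, the log2 ratio of the 2 counts (with 0.5 added) per gene length was tested. Its sign was flipped over the 5 mice in every way (a two-sided exact permutation test). The length was that implied by the deposited RPKM, which for Grin2d is 4383 bases against 6658 exon bases in M21. With 5 mice the smallest p such a test can give is 0.0625, and 0.0729 after Benjamini-Hochberg adjustment over the 21 pairs, so none could pass 0.05. A total of 18 pairs had the same direction in 5 of 5 mice and reached that smallest p, 0.0625 (exact permutation test). Grin1 exceeded Grin2a by 1.02 ± 0.71, Grin2c by 1.68 ± 0.17 and Grin2d by 2.74 ± 0.20 log2 units (SD, n = 5), each higher in 5 of 5 mice. Grin2a lay below Grin2b by a log2 ratio of -1.02 ± 0.16, and Grin2c lay above Grin2d by 1.05 ± 0.23. Even Grin2d, the lowest of the GluN2 genes, exceeded Grin3b by 5.16 ± 0.65 log2 units. With the M21 exon length, Grin1 exceeded Grin2d by 3.34, Grin2c exceeded Grin2d by 1.66 and Grin2d exceeded Grin3b by 4.55 log2 units.

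For 3 neighbours in the order the direction was not shared by all mice. The log2 ratio of Grin1 to Grin2b was -0.22, -0.32, -0.48 and -0.05 in mice 7 to 10 and 1.05 in mouse 11, with a mean of -0.00 ± 0.61 (exact permutation p = 1). Grin2a exceeded Grin2c in 4 of 5 mice, by 0.66 ± 0.80 on average, and the ratio was -0.65 in mouse 11 (exact permutation p = 0.188). Grin2d lay below Grin3a in 4 of 5 mice, at -0.45 ± 0.61, and the ratio was 0.51 in mouse 11 (exact permutation p = 0.188). Each exception was mouse 11. Without it, the mean log2 ratios were -0.27 ± 0.18, 0.99 ± 0.37 and -0.69 ± 0.34 in that order, and all 21 pairs had 1 direction in the 4 mice left. The exception of Grin2d and Grin3a depends on length: with the M21 exon length their mean log2 ratio was -1.06 ± 0.61 over the 5 mice. On that length 19 of the 21 pairs had the same direction in 5 of 5 mice.

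Within the GluN2 family, Grin2b made up the largest share of the transcripts. It held 50.5% ± 5.93 of the summed Grin2 RPKM, against 25.03% ± 4.41 for Grin2a, 16.5% ± 6.89 for Grin2c and 7.92% ± 3.08 for Grin2d (SD, n = 5). Mouse 11 differed in make-up: its shares were 41.1% for Grin2b, 17.9% for Grin2a, 28.0% for Grin2c and 13.1% for Grin2d. In the other mice Grin2b held 50.2% to 56.7%, Grin2a 24.4% to 29.4%, Grin2c 11.2% to 18.0% and Grin2d 4.82% to 7.39%, so that no share of mouse 11 lay within the range of the others.

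**Figure D2:**
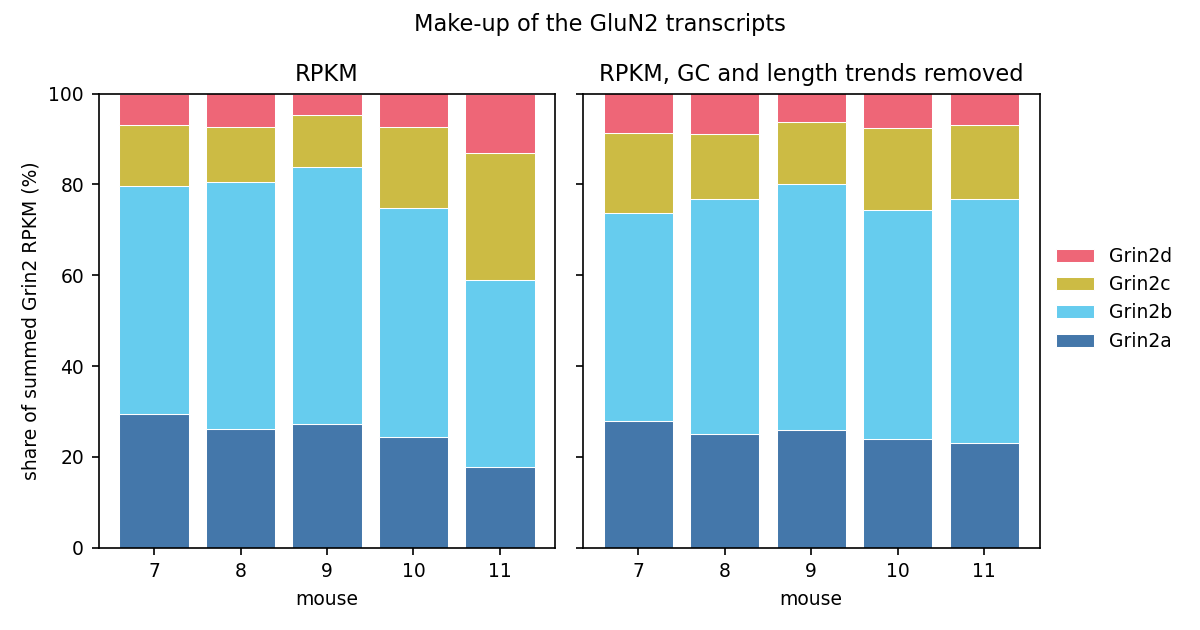
Share of Grin2a, Grin2b, Grin2c and Grin2d in their summed RPKM in each mouse, as stacked bars, before (left) and after (right) removal of each library's trends with GC content and exon length. On the left, Grin2c and Grin2d together take a larger share in mouse 11 than in any other mouse; on the right, Grin2b takes 45.8% to 54.2% in every mouse.

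The summed GluN2 level was 2.06 ± 0.519 times that of Grin1, at 1.17 in mouse 11 and 2.05 to 2.46 in the other mice. The summed GluN3 level was 10.5% ± 0.846 of the GluN2 sum and varied little between mice, from 9.53% to 11.7%, nearly all of it Grin3a. This share depends on length too: with the longest coding transcript it was 16.1% ± 1.21, between 14.9% and 17.8%.

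The ratios to Grin1 depend on the length that divides its counts. The exons of all 14 annotated Grin1 transcripts span 9700 bases, the length implied by the deposited RPKM, whereas the longest coding transcript has 4276 bases. With the length of that transcript Grin1 averaged 61.9 ± 14.9 RPKM against 28.2 ± 5.44 RPKM for Grin2b, and its mean log2 ratio to Grin2b became 1.13. The GluN2 sum was then 0.969 ± 0.253 times Grin1. Grin3a was 9.12 ± 1.49 RPKM on that scale, slightly above Grin2c at 8.87 ± 2.70 RPKM. Grin2d is the only subunit for which the implied length, 4383 bases, differs by more than 1% from the exon length in M21, 6658 bases, which would put it at 2.72 ± 0.759 RPKM.

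**Figure D3:**
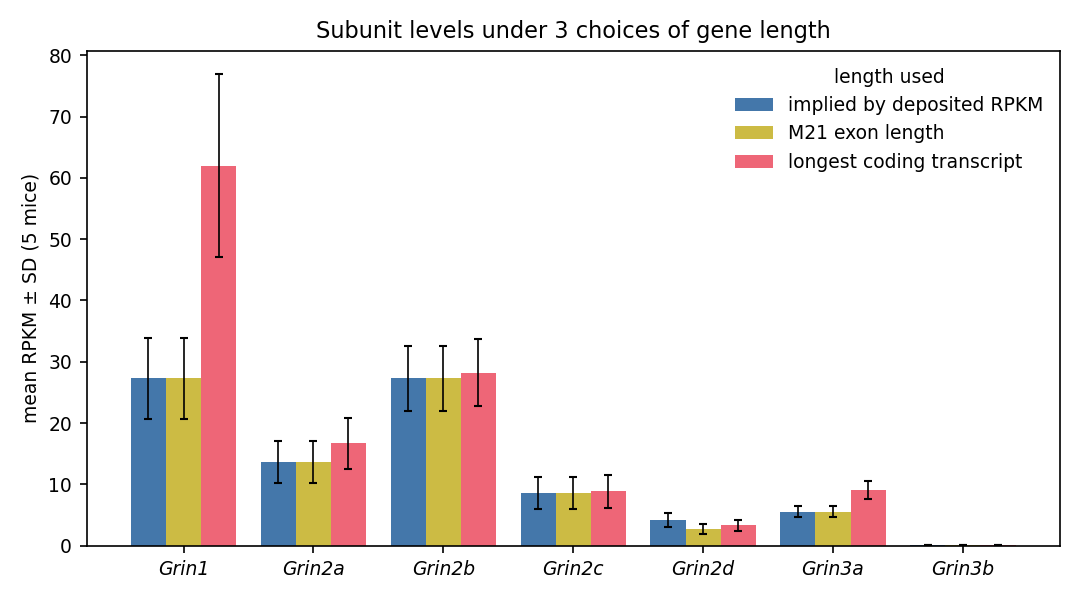
Mean RPKM ± SD over 5 mice for each subunit under 3 choices of gene length. The choice matters most for Grin1, which averages 27.3 RPKM with all exons and 61.9 RPKM with the longest coding transcript.

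The difference between mouse 11 and the others moved with the base composition of the subunit genes, and the cause was not tested. Differences are given in log2 CPM (counts scaled to library size with TMM, and a prior count of 1), as mouse 11 minus the mean of the other 4 mice. They were 0.75 for Grin1, 0.85 for Grin2c and 0.80 for Grin2d, whose longest transcripts have a GC content of 59.4%, 62.1% and 65.0%. They were -0.79 for Grin2a, -0.57 for Grin2b and -0.41 for Grin3a, with a GC content of 44.8%, 45.7% and 49.2%. The 3 GC-rich subunits were thus highest in mouse 11 and the 3 others lowest. Grin3b, with a GC content of 63.4%, had too few counts to enter this comparison.

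The same slope ran through all genes. In 5 equal classes of rising GC content, the median difference of mouse 11 was -0.52, -0.31, -0.01, 0.29 and 0.63 log2 units. Mouse 7 ran the other way: its median deviation from the mean over the 5 mice was 0.34 in the lowest class and -0.13 in the highest. Across the 16318 genes tested, 37.6% were highest in mouse 11, beside 3 of the 6 tested subunits, and 32.7% were lowest there, beside the other 3. When each library's trends with GC content and exon length were removed, using third-degree polynomials over all genes, the differences of mouse 11 became 0.10 for Grin1, -0.24 for Grin2a, 0.01 for Grin2b, -0.05 for Grin2c, -0.24 for Grin2d and -0.22 for Grin3a. After that step 1 of 6 subunits was highest in mouse 11, where 30% of all genes were, and 3 of 6 were lowest there, where 25.6% of all genes were.

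**Figure D4:**
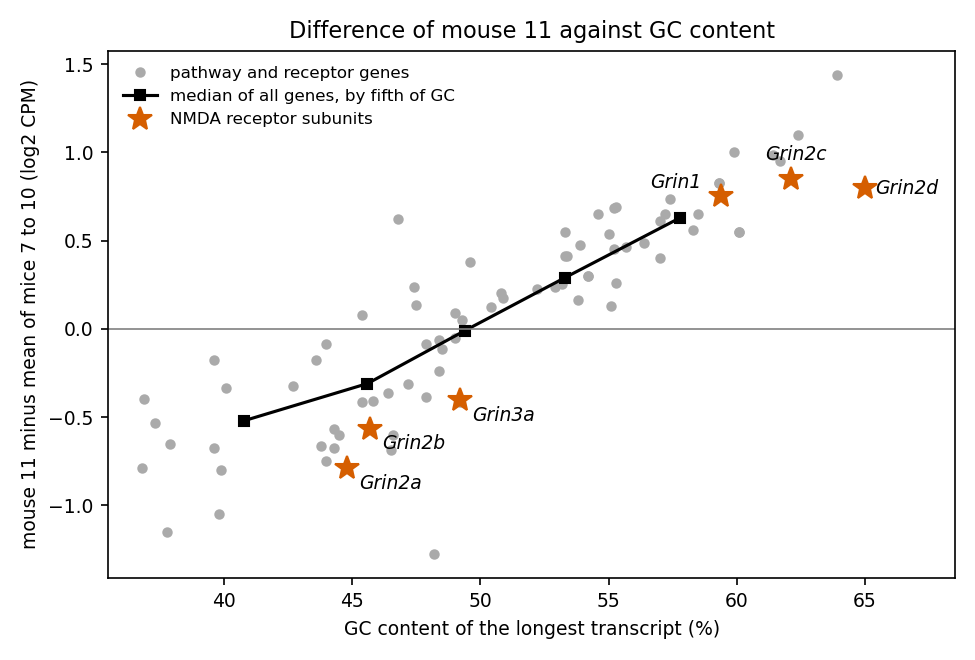
Difference of mouse 11 from the mean of mice 7 to 10 in log2 CPM against the GC content of each gene's longest transcript, for 6 NMDA receptor subunits (stars), the pathway and receptor genes (grey) and the medians of 5 GC classes of all genes (black line). The 3 GC-rich subunits lie above 0, up to 0.85 for Grin2c, and the 3 others lie below the line, down to -0.79 for Grin2a.

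Removing the trends narrowed the spread of each of the 6 subunits. The SD of log2 CPM over the 5 mice was 0.34 for Grin1, 0.39 for Grin2a, 0.28 for Grin2b, 0.44 for Grin2c, 0.41 for Grin2d and 0.23 for Grin3a, where the median of all genes was 0.30. With trends removed these SDs were 0.06, 0.15, 0.20, 0.14, 0.16 and 0.17 in that order, where the median of all genes was 0.23. Grin1 was then the most even, with deviations between -0.05 and 0.08 in the 5 mice. The shares of the GluN2 family in mouse 11 became 53.8% for Grin2b, 23.0% for Grin2a, 16.2% for Grin2c and 7.02% for Grin2d, and the GluN2 sum was 1.97 ± 0.164 times Grin1.

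**Figure D5:**
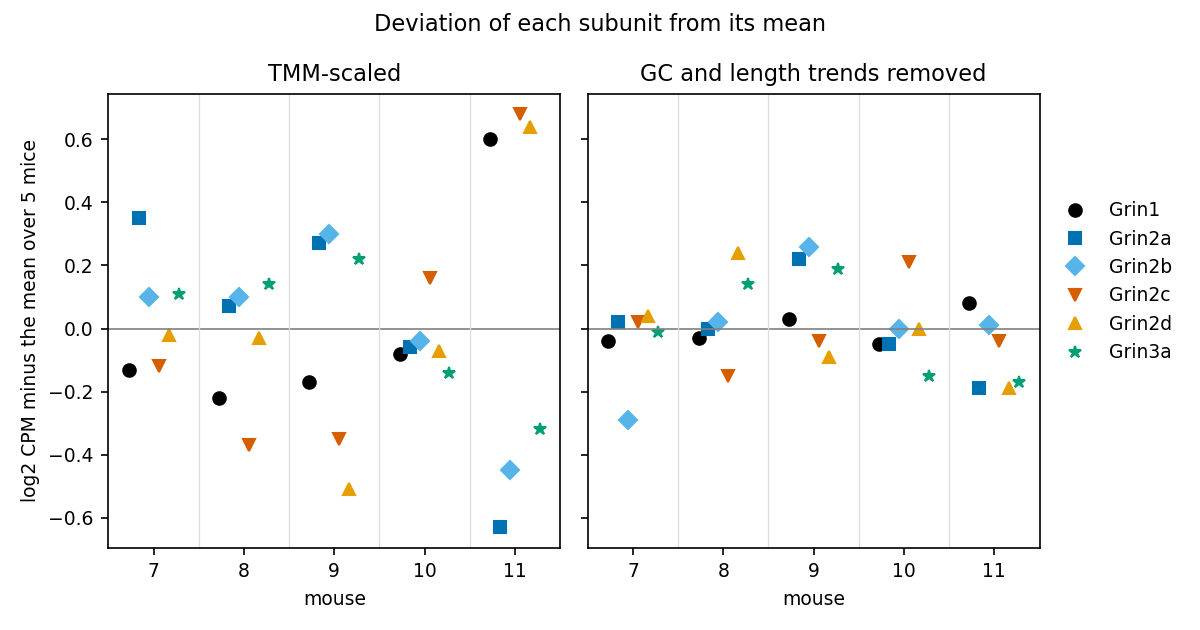
Log2 CPM of 6 subunits in each mouse minus the mean over the 5 mice, with TMM scaling (left) and with GC and length trends removed as well (right). Mouse 11 spreads from -0.63 for Grin2a to 0.68 for Grin2c on the left, and from -0.19 to 0.08 on the right.

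With the trends removed, the largest deviations were those of Grin2b, at -0.29 in mouse 7 and 0.26 in mouse 9. Next came Grin2d, at 0.24 in mouse 8, and Grin2a, at 0.22 in mouse 9. Before that step these values were 0.10, 0.30, -0.03 and 0.27 in that order. Those of Grin2b in mouse 7 and of Grin2d in mouse 8 thus changed sign with the step. Grin2c was highest in mouse 10 with trends removed, by 0.21 above its mean. Mouse 10 also had the highest sum of the 5 cerebellar granule cell markers, 31.9 RPKM, against 8.89 to 16.8 RPKM in the other mice. Of these markers, 5 of 5 were highest there, and 4 of 5 with trends removed. The share of all genes highest in mouse 10 was not counted. The sum of the 5 astrocyte markers was 352 RPKM in mouse 10, against 288 to 356 RPKM elsewhere. In mouse 11 the sum of the 5 excitatory forebrain neuron markers was 1045 RPKM, against 549 to 635 RPKM in the others. With trends removed 5 of 5 were highest there, where 30% of all genes were. Also highest in mouse 11 were the sums of the inhibitory neuron (522 RPKM), striatal (159), thalamic (53.2), hippocampal (67.0) and endothelial markers (42.0). Mouse 11 was not highest for the granule cell, Purkinje cell, brainstem, astrocyte, oligodendrocyte, oligodendrocyte precursor and microglia sums. With trends removed its median difference was 0.40 log2 units for the excitatory and 0.41 for the thalamic markers. It was 0.11, 0.07, -0.21 and 0.11 for the inhibitory, striatal, hippocampal and endothelial markers. The 5 general neuronal markers summed to 507 RPKM in mouse 11, against 616 to 701 RPKM elsewhere, but with trends removed 4 of 5 were highest there (30% of all genes). Their median difference of mouse 11 was -0.35 log2 units, and 0.19 with trends removed. The median SD of these markers fell from 0.19 to 0.12 log2 units with that step. For Elavl4, however, it rose from 0.05 to 0.30, with mouse 11 at 0.03 before and 0.49 after. The part of these cell type differences in the subunit levels was not tested.

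No subunit passed the test for variation between mice beyond that of genes of like expression. In an edgeR quasi-likelihood fit of an intercept to the counts, each gene's dispersion was compared with the distribution over all genes. The number called among the 6 tested subunits was 0, and over the 16318 genes it was also 0 (0%) at a Benjamini-Hochberg adjusted p under 0.05. The adjusted p of the subunits lay between 0.981 for Grin1 and 0.992 for Grin3a (edgeR), and the unadjusted p between 0.0832 for Grin2c and 0.498 for Grin3a. Over all genes 786 had an unadjusted p under 0.05, and DESeq2 marked 49 as dispersion outliers, 0 of them subunits. In simulated counts, 100 genes were given a 4-fold increase and another 100 a 16-fold increase, each gene in 1 mouse drawn at random. All raised genes averaged 100 counts or more, and the test found 59 and 100 of them in that order. The simulated dispersions were drawn around the trend with mean expression, and no trend with GC content was simulated. These numbers therefore need not hold for the real libraries. Smaller increases, such as those of the subunits, were not simulated.

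NMDA receptor transcripts were next compared with those of the other ionotropic glutamate receptors in the same libraries. AMPA receptors carry the fast current at excitatory synapses, and kainate receptors modulate release and excitability. The 7 NMDA receptor genes summed to 0.582 ± 0.112 of the 4 AMPA receptor genes (SD, n = 5), below 1 in 5 of 5 mice. With the longest coding transcript as length the ratio was 0.692 ± 0.189, at 1.01 in mouse 11 and below 1 in the other 4 mice. With the length implied by the deposited RPKM, the ratio was 0.460, 0.546, 0.556, 0.586 and 0.764 in mice 7 to 11. The AMPA sum was 153 ± 28.0 RPKM, led by Gria1 with 87.6 ± 7.204 RPKM. Gria2, whose product makes the AMPA receptor impermeable to calcium, has a GC content of 36.8% and had 19.1 RPKM in mouse 11 against 28.7 to 53.3 RPKM in the others. Against the 5 kainate receptor genes, the NMDA receptor sum was 1.23 ± 0.131 times as high, at 1.002 in mouse 11 and 1.22 to 1.34 in the other mice. The GC-rich Grik5, a high-affinity kainate subunit, reached 52.6 RPKM in mouse 11, against 25.3 to 30.9 RPKM elsewhere. With trends removed the NMDA receptor sum was 0.569 ± 0.0451 of the AMPA sum and 1.21 ± 0.0555 times the kainate sum.

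Genes that supply, anchor and regulate the receptor were read from the same fit, as 9 lists of 82 genes that include the AMPA and kainate receptors. Of these, 77 had enough counts, 0 were called variable (edgeR, adjusted p under 0.05) and 10 had an unadjusted p under 0.05, where 786 of all 16318 genes had. In mouse 11, 38 of the 77 were highest and 25 lowest, beside 37.6% and 32.7% of all genes. With trends removed 25 were highest and 16 lowest, beside 30% and 25.6% of all genes.

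Genes of co-agonist supply spanned a wide range of levels. Psat1, an enzyme of serine synthesis, led with 40.7 ± 3.61 RPKM, and Srr, which makes D-serine, had 8.01 ± 1.67 RPKM. Dao, the D-amino acid oxidase that degrades D-serine, was lowest with 0.483 ± 0.419 RPKM, at 1.14 RPKM in mouse 10, against 0.0865 to 0.550 RPKM elsewhere. Dao is known to be strongest in the cerebellum and brainstem. Mouse 10 had the highest granule cell marker sum, but its sum of the 5 brainstem markers, 6.20 RPKM, lay within the 2.34 to 16.3 RPKM of the others, and the part of either in the level of Dao was not tested. Ddo, which degrades D-aspartate, had 2.68 ± 0.917 RPKM and was likewise highest in mouse 10. Of the 7 kynurenine pathway genes, which make and remove the receptor's endogenous ligands quinolinate and kynurenate, 2 averaged 10 counts or more. Kyat1, a kynurenine aminotransferase, was the highest of them with 4.47 ± 0.935 RPKM, and Kynu the lowest with 0.0221 ± 0.0155 RPKM and no count in mouse 10.

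Among the 14 postsynaptic scaffolds, Dlg4, which encodes PSD-95 and binds the tails of GluN2 subunits, was highest with 132 ± 25.4 RPKM, above any NMDA receptor subunit. Mouse 11 stood at 176 RPKM, the other mice at 116 to 126 RPKM. Its annotated longest transcript has a GC content of only 46.8%, and removing the trends widened its SD to 0.46 log2 units, against 0.28 before. Dlgap3, a PSD-95 binding protein, varied most, with 78.0 RPKM in mouse 11, against 27.5 to 32.3 RPKM elsewhere (unadjusted p = 0.00657, adjusted p = 0.981, edgeR). With trends removed the SD of Dlgap3 fell from 0.65 to 0.21 log2 units. Dlgap2 was the lowest scaffold with 9.71 ± 0.846 RPKM. In this list 9 of 14 genes were highest in mouse 11 (37.6% of all genes), and 7 of 14 with trends removed (30% of all genes).

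Of the 8 trafficking genes, Apba1, part of the complex that links GluN2B cargo to the motor Kif17, was highest with 42.0 ± 5.73 RPKM, and Kif17 lowest with 5.54 ± 0.985 RPKM. Vps35, a subunit of the retromer that recycles membrane proteins, varied most: it had 67.8, 34.1, 28.2, 29.0 and 15.8 RPKM in mice 7 to 11 (unadjusted p = 0.00589, adjusted p = 0.981, edgeR). Vps35 was thus highest in mouse 7 and lowest in mouse 11. With trends removed its SD fell from 0.72 to 0.40 log2 units. Among 14 kinases and phosphatases, Camk2a, which binds GluN2B and is needed for plasticity, led with 337 ± 59.7 RPKM, and Csk was lowest with 10.2 ± 1.86 RPKM. Src, a tyrosine kinase that acts on the receptor, varied most, with 27.1 RPKM in mouse 11, against 15.8 to 16.6 RPKM elsewhere. Within this group 10 of 14 were highest in mouse 11 (37.6% of all genes), and 7 of 14 with trends removed (30% of all genes).

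The 13 calcium effectors and partners ranged from Calm2, one of the calmodulin genes, with 661 ± 93.4 RPKM, to the receptor tyrosine kinase gene Ephb2 with 1.49 ± 0.325 RPKM. Camk4, a nuclear calcium-dependent kinase, varied most, with 24.8 RPKM in mouse 7, 6.04 RPKM in mouse 11, and 12.7 to 14.1 RPKM elsewhere (unadjusted p = 0.00807, adjusted p = 0.981, edgeR). Unlike the receptor subunits, Camk4 kept this spread with trends removed, with an SD of 0.65 against 0.69 log2 units before. All 6 transcription factors known to act on NMDA receptor genes were detected, from Sp3 with 11.7 ± 1.495 RPKM to the repressor Rest with 1.38 ± 0.319 RPKM. Sp4 varied most among them, from 3.62 RPKM in mouse 11 up to 8.99 RPKM in mouse 7.

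For each of the 6 better counted subunits, the 3 genes with the most similar profile were found among the 11194 genes that averaged 100 counts or more, by the root mean square difference of log2 CPM over the 5 mice after centring. Nearest to Grin1 were Cdkn2d, Slc9a3r1 and Ptprn, at 0.023 to 0.024 log2 units. Nearest to Grin2a were Abraxas2, Ncoa4 and Exoc3, and to Grin2b Fam118b, Klhl12 and Ipo5. Grin2c was closest to Tepsin, Tmem201 and Plcd3, and Grin2d to Dtx2, Kifc3 and Agt. These likenesses describe 5 libraries only, and with GC and length trends removed 0 of the 18 genes remained among the nearest.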

How the data were processed

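RNA from the brain of 5 male mice was sequenced as 5 libraries, 1 per mouse. Raw counts of each gene were deposited by the authors, with 1 column per mouse. The submitters' processing notes name featureCounts 1.4.6-p4, STAR 2.4.1d, CASAVA 1.7 and the GRCm38 build; what each did, the gene annotation used and whether strand was counted are not given in the sources used here. The authors also deposited RPKM values for the same genes.

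The deposited RPKM were checked against the counts. For 12729 genes, each with 30 counts or more and 0.3 RPKM or more in all libraries, the implied gene lengths of the 5 libraries were within 1% of each other for 0 genes with each library's own total, and for 12729 with the library totals taken in turn down the table. Deposited values were 0.822 to 1.22 times those with the own total. RPKM were therefore recomputed with each library's total and the implied length, which was within 1% of the M21 exon length for 74.5% of the genes checked. Symbols from GENCODE M21 matched 47310 identifiers.

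Variation between mice was tested with edgeR 4.0.16 (TMM, genes averaging 10 counts or more) and limma 3.58.1, and DESeq2 1.42.0 was an alternative. The edgeR test was checked on simulated data for the same 16318 genes, with 2 false calls. Trends were removed per library with polynomials of degree 3 in GC content and log exon length. The labels do not say whether anything but the animal differs between samples, so all p-values are limited to these mice. The exact permutation p concerns the direction of a mean log2 ratio over the mice, which depends on the gene lengths used. The edgeR p concerns whether a gene's dispersion between the mice exceeds that of genes of like expression. Members, lists and tests were chosen with earlier results of these data known. Named are all subunits and, per list, the genes of highest and lowest mean RPKM and of largest SD of log2 CPM among those averaging 100 counts or more; Srr and Gria2 were added after their values were seen. Among the alternatives, those on the longest coding transcript, the M21 length for the GluN2 shares, the GC trends in levels and in the edgeR fit, and mouse 11 against the rest were added after seeing the data. The pore sequence of 1 subunit and the genes most like Grin3a are not reported here.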

Additional observations from a re-analysis of the deposited data

Results flagged for a closer look

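Values of 1 mouse that stood far from the other 4, by a gap above 0.71 of the range of the 5 (Dixon's criterion), were looked for in the CPM of each subunit and, with the implied gene length, in the sums, shares and ratios of the receptor families. Single AMPA and kainate receptor genes and other lengths were not included. The search gave 4 quantities. Chance alone gives about 1 in 20 groups, and 12% of all genes tested passed the same criterion, so such gaps were common in these libraries. How many quantities were searched is not given here, so the 4 cannot be set against either rate. Grin1 stood at 378 CPM in mouse 11, a gap of 0.854 of the range. The share of Grin1 in the summed RPKM of the 7 subunits was 43.8% in mouse 11, a gap of 0.770, against 26.8% to 30.7% in the other mice. The level of Grin1 enters both of these quantities. Its share was 33.9% in mouse 11 and 29.4% to 32.8% elsewhere with GC and length trends removed, a gap of 0.265. The summed kainate receptor RPKM was 88.8 in mouse 11, a gap of 0.752, against 62.6 to 69.1 in the other mice. With GC and length trends removed, the ratio of the NMDA to the AMPA receptor sum was 0.489 in mouse 7, a gap of 0.823, against 0.578 to 0.597 in the other mice.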

How the results depend on the processing

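Of 444 values under alternatives, 12 reversed and 21 moved beyond the spread between mice or, for counts, by over 1.5 times; the other 411 stayed within that, or, for the log2 ratios, kept their direction whatever their size. With the longest coding transcript the NMDA receptor sum was 1.58 times the kainate sum. Variable genes numbered 230 of 28335 with no filter on counts and 49 of 16318 (0.3%) as DESeq2 outliers, 0 of them subunits. Without a filter, 12 genes of the pathway and marker lists were among the 230. They were Dlgap3, Vps35 and Camk4, the cerebellar and brainstem markers Gabra6, Cbln3, Fat2, Pcp2, Car8, Slc6a5, Tph2 and Slc6a4, and the endothelial marker Cldn5. The DESeq2 outliers held 7 listed genes: Gabra6, Cbln3, Fat2, Car8, Slc6a5, Tph2 and Slc6a4. With the longest coding transcript as length, the summed level was 128 RPKM, the GluN2 sum 0.969 times Grin1, Grin2b 1.72 times Grin2a, the log2 ratio of Grin1 to Grin2b 1.13 and that of Grin2c to Grin3a -0.073. Per read, with no length, Grin2b held 68.8% of the GluN2 counts, the GluN2 sum was 3.95 times Grin1 and Grin2b 2.83 times Grin2a. Leaving out 1 mouse gave a log2 ratio of Grin1 to Grin2b between -0.27, without mouse 11, and 0.11. The deviation of Grin1 in mouse 11 from its mean over the 5 mice was 0.54 with library size scaling and 0.75 against the other 4 mice. With GC and length trends removed, deviations in mouse 11 were 0.08 for Grin1, -0.19 for Grin2a, 0.01 for Grin2b, -0.04 for Grin2c and -0.19 for Grin2d, and against the other 4 mice they were 0.10, -0.24, 0.01, -0.05 and -0.24 in that order; the cause was not tested. Of the 18 most similar genes, 11 remained at a mean count of at least 500. No paired analysis was possible because the labels give a single group. Depth limits Grin3b, with 32 counts in all. With 5 mice the sign-flip tests cannot pass 0.05.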
